A study of Mus musculus with 12 samples.

Results

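Fmo1, Fmo2, Fmo4 and Fmo5 encode 4 flavin-containing monooxygenases (FMOs) and were followed across the time of day in mouse dorsal root ganglia (DRG), where the cell bodies of sensory neurons lie next to the spinal cord. They are 4 of the 38594 rows with an Ensembl gene ID in the deposited table, found by their symbols. Fmo2 was selected on its measured change over these same libraries (the difference between the 4 times and the 24-h component), so that change is a description and carries no test. The other members were taken by family name. All libraries came from naive male C57BL/6J mice aged 6 to 12 weeks, with no treatment or engineered allele named in the labels, and differed in the zeitgeber time (ZT, hours from lights on) at which lumbar ganglia were taken: ZT2, ZT8, ZT14 or ZT20. There were 3 libraries of polyadenylated RNA at each time. The labels do not state that libraries came from separate animals, and a p-value then speaks only of library-to-library spread, part of which may be technical. Library numbers in the labels run in the order of the times, so a batch in library making and the time of day cannot be told apart.

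FMOs sit in the membrane of the endoplasmic reticulum and use a bound flavin (FAD), NADPH and oxygen to add an oxygen atom to nitrogen or sulfur atoms of drugs, amines and other small molecules. FMO1 also makes taurine from hypotaurine, FMO2 is best known from the lung, and FMO5 prefers the oxidation of carbonyl groups over that of amines. In a sensory ganglion, FMO transcripts can come from neurons, glia, vessels or connective tissue, and in a bulk sample fewer cells of a type and less RNA per cell cannot be told apart.

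The 4 genes are close relatives, which matters for counting their reads apart. The first 60 coding bases are shown because they hold the glycine-rich FAD-binding motif of the family (Gly-x-Gly-x-x-Gly, where x is any residue), whose codons are in capitals. Each line gives the coding strand, 5′ to 3′, from the mouse GRCm38 build.
Fmo1: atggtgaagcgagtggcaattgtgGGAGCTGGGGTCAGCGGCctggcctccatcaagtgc
Fmo2: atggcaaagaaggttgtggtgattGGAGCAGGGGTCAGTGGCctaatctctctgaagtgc
Fmo4: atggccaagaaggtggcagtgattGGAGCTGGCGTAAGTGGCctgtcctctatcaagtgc
Fmo5: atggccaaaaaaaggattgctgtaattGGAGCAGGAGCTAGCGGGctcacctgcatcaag
These stretches lie on the minus strand at chr1:162859497-162859556 (Fmo1), chr1:162898246-162898305 (Fmo2) and chr1:162809862-162809921 (Fmo4), and on the plus strand at chr3:97629061-97629120 (Fmo5), each within the first coding exon. The motif begins at codon 9 in the chromosome 1 members and at codon 10 in Fmo5. Fmo1 and Fmo2 shared 40 of these 60 bases, Fmo1 and Fmo4 shared 46, and Fmo2 and Fmo4 shared 48.

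Over the whole coding sequence, the members were 60.5% (Fmo1 and Fmo5) to 63.6% (Fmo2 and Fmo4) identical in aligned bases. The longest exact run that any member shared with a transcript of another member, Fmo6 or Fmo9 was 24 bases, far under the read length of 150 bases. The longest coding sequences hold 532 codons in Fmo1, 535 in Fmo2, 560 in Fmo4 and 533 in Fmo5. No other annotated gene overlaps any of the 4 genes on either strand.

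The chromosome 1 members are neighbours in 1 cluster, all on the minus strand of GRCm38. Fmo4 spans chr1:162793188-162813972, Fmo1 chr1:162829561-162866610 and Fmo2 chr1:162874317-162898726, with Fmo6 beyond Fmo2. Only 7.71 kb separates Fmo1 from Fmo2. Fmo5 stands alone on chromosome 3, at chr3:97628804-97655282 on the plus strand.

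Library totals of the estimated counts ran from 89.8 to 125.01 in units of 1000000, and all 4 members passed the filter on low values. Levels are given as CPM, the share of a library's total scaled to a common size, of the deposited estimated counts. The values follow coverage per base rather than read number, so levels can be set beside each other between genes. Markers of skeletal muscle, which borders the ganglia, differed widely between libraries of the same time, with a summed level of 22.1 to 802 CPM. Without the 4 libraries of highest muscle score (ZT2 replicate 2, ZT8 replicate 3, ZT14 replicate 1 and ZT20 replicate 1) the amplitudes of a 24-h cosine (log2 distance from mean to peak) were 0.77 for Fmo2, 0.18 for Fmo1, 0.20 for Fmo4 and 0.07 for Fmo5.

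Fmo1 was the most abundant family member in every library. Over the 12 libraries Fmo1 averaged 47.8 CPM, Fmo2 10.1, Fmo5 6.32 and Fmo4 1.62, which placed them 3528th, 9120th, 10513th and 13107th among 16666 protein-coding genes past the filter on low values. Fmo1 and Fmo4 stood apart from the others in all libraries. Fmo2 and Fmo5 overlapped at ZT2, whereas at ZT8, ZT14 and ZT20 every Fmo2 value lay above every Fmo5 value. Fmo6 averaged 0.276 CPM, and Fmo9 was above 0 in 4 libraries, at most 0.0418 CPM.

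**Figure D1:**
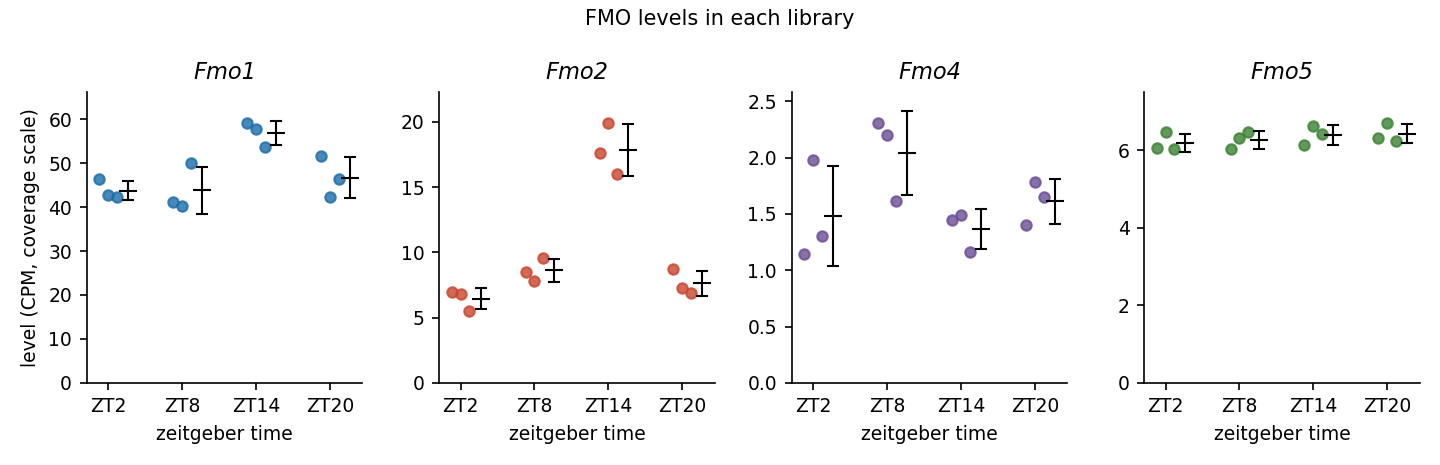
Level in CPM (y axis, from 0, with its own scale per gene) of each FMO member in each library against zeitgeber time; dots are libraries, bars the mean ± SD of 3. Fmo2 was highest in the 3 ZT14 libraries (16.0 to 19.9 CPM), the 3 ZT14 libraries of Fmo1 lay above its other 9 by less, and Fmo5 stayed between 6.02 and 6.70 CPM.

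Fmo2 had the large daily difference for which it was chosen. Its level was 6.98, 6.80 and 5.51 CPM at ZT2, and 8.47, 7.82 and 9.58 CPM at ZT8. It was 17.6, 19.9 and 16.0 CPM at ZT14, and 8.70, 7.29 and 6.87 CPM at ZT20. The ZT14 libraries were all far above the other 9, and ZT2 lay below ZT8 without overlap. The shares of all genes with these orders were not counted. In order of time, the means were 6.43 ± 0.801, 8.63 ± 0.888, 17.8 ± 1.96 and 7.62 ± 0.962 CPM (SD, n = 3). In the model fitted across all genes, the fitted level was 2.77-fold higher at ZT14 than at ZT2 (log2 difference 1.47 ± 0.13, SE). Between ZT8 and ZT14 it was 2.07-fold higher, and from ZT14 to ZT20 it went to 0.427 of its level. A 24-h cosine through the 4 times had an amplitude of 0.74 ± 0.06 (SE, log2 distance from mean to peak) and peaked at 13.5 ± 0.32 h. The amplitude of all 25809 genes tested had a median of 0.0959 and a 95th percentile of 0.934, which is above that of Fmo2. These genes include ones near the floor, such as Mir7225 (mean 0.234 CPM, amplitude 1.20, edgeR adjusted p = 0.999 for the 24-h component). That percentile is therefore no share of genes with a daily difference. Of all genes tested, 0.0659% of genes passed the 24-h test, 0.0504% the test of any difference between times, 0.0465% the ZT14 against ZT2 contrast and 0.0232% the ZT20 against ZT8 contrast (edgeR, Benjamini-Hochberg adjusted p under 0.05). Of the other 3 members, 0 passed any of them.

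At ZT20 and ZT8 the Fmo2 levels overlapped, and the fitted log2 difference was -0.18 with a 95% interval from -0.45 to 0.09. The high libraries were those of ZT14 alone.

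Fmo1 showed a smaller difference at the same time of day. Its level was 46.3, 42.7 and 42.3 CPM at ZT2, and 41.1, 40.3 and 50.1 CPM at ZT8. It was 59.1, 57.7 and 53.8 CPM at ZT14, and 51.5, 42.3 and 46.3 CPM at ZT20. The 3 ZT14 libraries were above all 9 others, and the other times overlapped. ZT14 above ZT2 without overlap was the order of 5.79% of all genes tested, and the share for all 9 others was not counted. The fitted level at ZT14 was 1.30-fold that at ZT2 (log2 difference 0.38, 95% interval 0.18 to 0.58), with an amplitude of 0.19 ± 0.05 and a peak at 14.9 ± 0.89 h. In edgeR this did not pass across all genes (adjusted p = 0.410 for ZT14 against ZT2 and 0.620 for the 24-h component, unadjusted p = 0.00421). DESeq2, which called 163 genes in the 24-h test where edgeR called 17, gave adjusted p = 0.0246 and 0.0423. ZT20 and ZT8 overlapped, with a log2 difference of 0.09 (95% interval -0.11 to 0.29).

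Fmo4, the rarest of the 4 and a member with few known substrates, differed most between ZT8 and ZT14. Its level was 1.15, 1.98 and 1.31 CPM at ZT2, and 2.31, 2.201 and 1.61 CPM at ZT8. It was 1.45, 1.49 and 1.17 CPM at ZT14, and 1.40, 1.79 and 1.65 CPM at ZT20. Means were highest at ZT8 (2.04 ± 0.374 CPM) and lowest at ZT14 (1.37 ± 0.175 CPM), the opposite side of the mean from Fmo1 and Fmo2. ZT14 differed from ZT2 by -0.12 on the log2 scale (95% interval -0.60 to 0.36) and ZT20 from ZT8 by -0.34 (-0.81 to 0.13). Both of these pairs of times overlapped. Every ZT8 value was above every ZT14 value, an order that 5.71% of all genes tested had, with a fitted log2 difference of -0.58 ± 0.22 (SE) for ZT14 against ZT8, a pair of times not tested on its own. Neither tested contrast passed in edgeR, the 24-h component had an adjusted p of 0.996 and any difference between the times 0.856. These intervals are wide, so a modest change in either direction was not detectable.

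Fmo5 was the steadiest. Its level was 6.05, 6.46 and 6.05 CPM at ZT2, and 6.02, 6.31 and 6.48 CPM at ZT8. It was 6.14, 6.64 and 6.43 CPM at ZT14, and 6.33, 6.70 and 6.25 CPM at ZT20. All 4 groups overlapped. The ZT14 against ZT2 interval ran from -0.09 to 0.19 on the log2 scale and that of ZT20 against ZT8 from -0.11 to 0.18, and the first of these intervals ends well below the log2 difference of 1.47 described for Fmo2. The 24-h amplitude was 0.03 ± 0.03 (adjusted p = 0.9998 in edgeR).

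**Figure D2:**
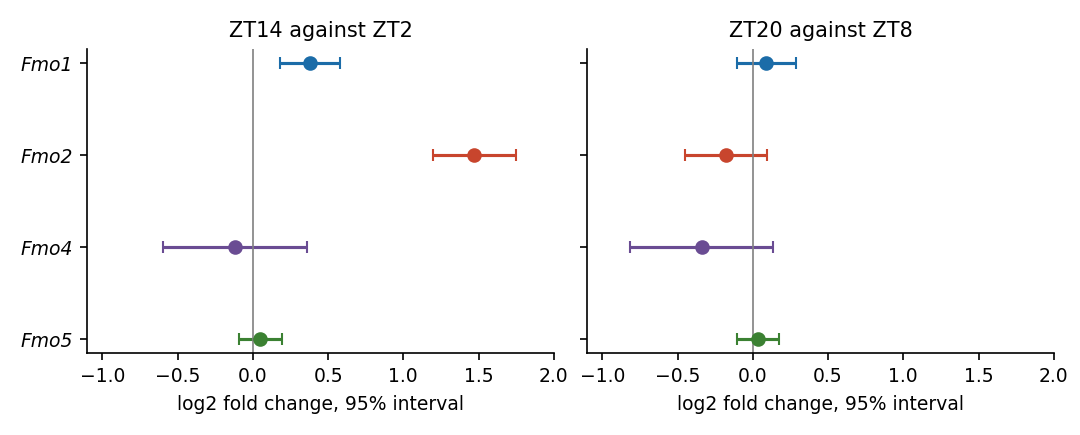
Fitted log2 fold change (x axis) of each member for ZT14 against ZT2 (left) and ZT20 against ZT8 (right); points are estimates over 12 libraries and bars 95% intervals. Fmo2 (1.47) and Fmo1 (0.38) lie to the right of 0 for ZT14 against ZT2, and all 4 intervals include 0 for ZT20 against ZT8.

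Counting libraries instead of fitting them, every ZT14 value was above every ZT2 value for Fmo1 and not for Fmo4 or Fmo5. That order was found in 5.79% of all genes tested. Fmo2 had it too, but was selected on its change over these libraries, so it is not set beside that share. For ZT20 and ZT8, Fmo1, Fmo4 and Fmo5 each overlapped. Of all genes tested, 9.9% were free of overlap there in either direction. Fmo2 is again not set beside that share.

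The make-up of the family's transcripts differed between the times. The levels of the 4 members, Fmo6 and Fmo9 summed to 82.8 ± 4.46 CPM at ZT14 (SD, n = 3), above 58.0 ± 2.73 at ZT2, 61.1 ± 6.00 at ZT8 and 62.7 ± 5.21 at ZT20. Fmo2 made up 21.5% ± 1.38 of that sum at ZT14, and 11.1% ± 0.943, 14.1% ± 0.420 and 12.1% ± 0.842 at ZT2, ZT8 and ZT20. Fmo1 made up 75.4% ± 1.73 at ZT2 and 68.7% ± 1.53 at ZT14. The ratio of Fmo1 to Fmo2 was lowest at ZT14, at 3.21 ± 0.264, and was 6.86 ± 0.725 at ZT2, 5.08 ± 0.195 at ZT8 and 6.16 ± 0.514 at ZT20. Fmo5 made up 10.7% ± 0.621 of the sum at ZT2 and 7.74% ± 0.504 at ZT14, at a near-constant level of its own. These shares contain the Fmo2 values and are descriptions.

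**Figure D3:**
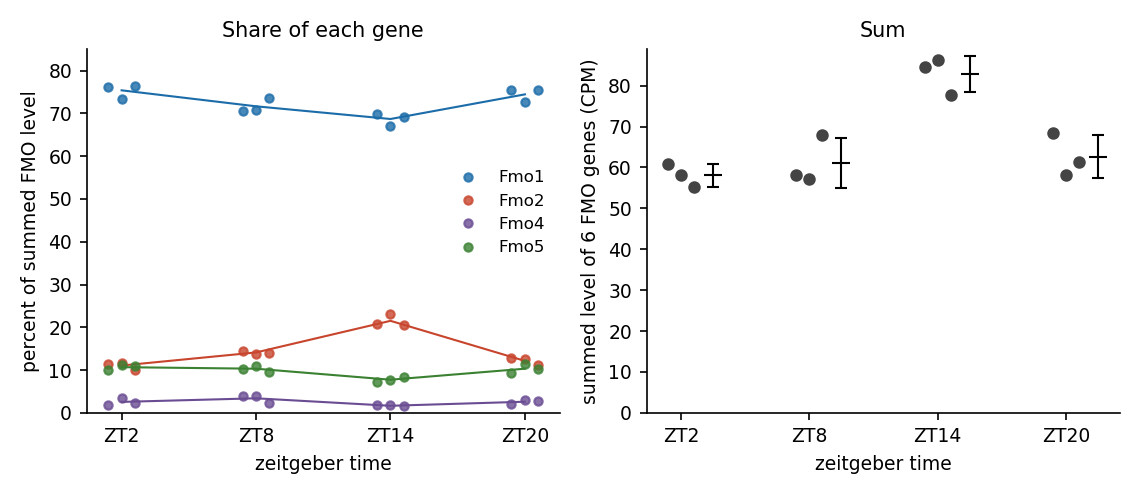
Left, percent of the summed FMO level (y axis) held by each member at each time, dots being libraries and lines joining the means; right, the summed level of the 4 members, Fmo6 and Fmo9 in CPM with mean ± SD of 3 libraries. The Fmo2 share was highest at ZT14 (21.5%), where the sum was also highest (82.8 CPM).

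Fmo1 and Fmo2 also varied together between libraries of the same time. With the mean of each time removed, their log2 levels correlated with r = 0.72 (exact permutation within times, two-sided p = 0.0285; rho = 0.69, p = 0.0316; n = 12). Without the 2 farthest libraries r was 0.69. Over the 6 member pairs the adjusted p was 0.171, so the relation did not pass. Fmo4 ran against Fmo1 (r = -0.57, exact permutation p = 0.0903, adjusted 0.271), and Fmo5 went with none of the others (r between -0.07 and 0.31).

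The cell types that could carry these transcripts were followed through their marker genes. Sensory neuron markers were abundant throughout, 8 of 8 detected with a summed level of 15619 to 16772 CPM, as the tissue label requires. Fibroblast markers (7 of 7 detected) summed to 592 to 722 CPM at ZT2 and 681 to 778 at ZT14, with overlap. Smooth muscle and pericyte markers (7 of 7) were 150.2 to 160.0 CPM at ZT2 and 159.4 to 185.8 at ZT14, also with overlap. In both lists all 7 markers had a fitted log2 difference above 0 for ZT14 against ZT2. The median over all genes was about 0, and markers of the same cell type can move together. In edgeR, 0 fibroblast and 2 smooth muscle and pericyte markers had an unadjusted 24-h p under 0.05, against 5.2% of all genes tested. Endothelium, macrophage and myelinating Schwann cell sums overlapped too, with 6, 4 and 5 of 7 markers above 0. Fitted differences were above 0 in 5 of 8 sensory neuron, 3 of 3 perineurium, 4 of 4 erythroid and 5 of 5 tested adipocyte markers. They were above 0 in 2 of 7 satellite glia, 0 of 5 neutrophil and 4 of 8 skeletal muscle markers. Perineurium markers (3 of 3), from the sheath around nerve bundles, were 79.1 to 85.7 CPM at ZT2 and 92.6 to 100.4 at ZT14, without overlap. The largest part was Slc2a1, at 44.5 ± 1.23 CPM at ZT2 and 50.6 ± 2.03 at ZT14 (SD, n = 3). Itgb4 had 26.3 ± 0.126 and 30.8 ± 0.776 CPM, and Cldn1 11.9 ± 2.38 and 14.3 ± 2.15 CPM. Adipocyte markers (6 of 6) were 3.35 to 5.62 CPM at ZT2 and 7.33 to 18.6 at ZT14, also without overlap. Cfd was the largest part, at 2.96 ± 0.882 CPM at ZT2 and 7.78 ± 4.48 at ZT14. Lep was below the filter, at most 0.0766 CPM. Among single genes tested, 5.79% had ZT14 above ZT2 without overlap. Erythroid markers (4 of 4) were highest at ZT14, at 2467 to 2722 CPM, overlapping ZT2 (1145 to 2597) and above ZT8 (1487 to 1576) and ZT20 (511 to 825). Neutrophil markers (5 of 5) were 60.5 to 141.0 CPM at ZT2 and 69.7 to 100.5 at ZT14, and lowest at ZT20, at 23.9 to 41.6. Satellite glia markers (7 of 7) summed to 1104 to 1209 CPM at ZT2 and 779 to 838 at ZT14, a difference that came from Fabp7. Without Fabp7 the other 6 summed to 538 to 581 CPM at ZT2 and 575 to 599 at ZT14, with overlap. No list had a marker at 0 in all libraries. The part of these cell types in the Fmo1 and Fmo2 differences was not tested.

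Within times, Fmo1 followed fibroblast markers closely (r = 0.92, exact permutation p = 0.00309; rho = 0.87, p = 0.00694; r = 0.89 without the 2 farthest libraries). It also followed perineurium (r = 0.86, p = 0.0116, exact permutation), macrophage (r = 0.82, p = 0.00617) and skeletal muscle markers (r = 0.81, p = 0.0201). Fmo2 followed erythroid (r = 0.86, exact permutation p = 0.00694), macrophage (r = 0.85, p = 0.00463) and fibroblast markers (r = 0.73, p = 0.0216). Over all 48 relations the lowest adjusted p was 0.0833, so none passed. Fmo4 and Fmo5 had their strongest relations with satellite glia markers, both negative (r = -0.75 and -0.65, exact permutation p = 0.0617 and 0.0455, adjusted 0.217 and 0.182).

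Other genes shared the Fmo2 pattern. Among 16258 genes averaging at least 1 CPM, 6 correlated with Fmo2 above 0.9 over the 12 libraries, and 2 below -0.9. The libraries share the 4 times, so such values are descriptions. Cmklr1, the chemerin receptor, was the most similar (r = 0.92). It had 1.10 ± 0.133 CPM at ZT2 and 2.104 ± 0.135 at ZT14 (SD, n = 3). Pi16, a marker of adventitial fibroblasts (r = 0.90), had 2.24 ± 0.119 CPM at ZT2 and 4.60 ± 0.494 at ZT14. Mgp, a matrix inhibitor of calcification (r = 0.89), had 46.8 ± 9.03 and 84.1 ± 1.57 CPM. Sfrp4, a secreted Wnt antagonist (r = 0.88), had 14.0 ± 4.92 and 31.8 ± 8.59 CPM. Each of these 4 ratios between times was below that of Fmo2, which was selected on its change.

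The other 4 of the 8 most similar genes shared the shape at a smaller size. Jam2, a junctional adhesion molecule, had 33.1 ± 0.395 CPM at ZT2 and 36.0 ± 0.380 at ZT14. Slc6a8, the creatine transporter, had 45.9 ± 1.06 and 51.2 ± 1.19 CPM, and Slc1a5, a carrier of neutral amino acids, had 41.8 ± 2.47 and 53.6 ± 1.77 CPM. Plekho2 completed the group (r = 0.90, amplitude 0.13). A high correlation therefore went with amplitudes from 0.06 (Jam2) to 0.59 (Sfrp4).

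Genes opposite to Fmo2 were led by 4933402D24Rik and Sat1, an enzyme that acetylates polyamines (both r = -0.92). Sat1 had 108.8 ± 1.11 CPM at ZT2 and 82.1 ± 7.10 at ZT14. Fabp7, a fatty acid-binding protein of satellite glia (r = -0.90), had 590 ± 33.1 CPM at ZT2 and 221 ± 19.5 at ZT14. Dbi, an acyl-CoA-binding protein (r = -0.84), had 640 ± 16.4 and 499.9 ± 27.8 CPM at ZT2 and ZT14. Gm28578, Spg21, Senp8 and AW011738 filled the list with r from -0.85 to -0.82.

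**Figure D4:**
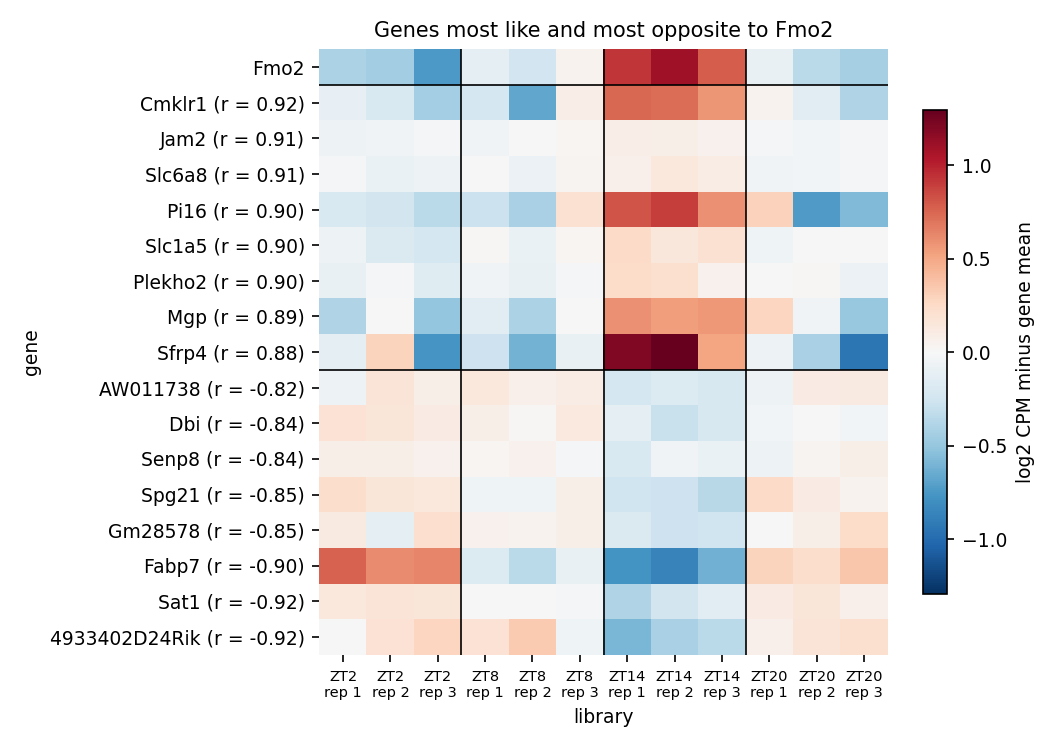
Log2 CPM minus the gene's own mean (colour) of Fmo2, the 8 genes most like it and the 8 most opposite (rows, with Pearson r over 12 libraries) in each library (columns, lines between times). The ZT14 columns are high for the upper block and low for the lower block; the genes were picked for this.

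Fmo1 had its own closest genes. Ltbp4, which holds latent TGF-beta in the matrix, came first (r = 0.97), with 19.1 ± 1.60 CPM at ZT2 and 26.9 ± 2.43 at ZT14. Smtn, a cytoskeletal protein of smooth muscle, was next (r = 0.95), then Traf4, Slc35g1 and Elovl1, an elongase of very long fatty acids (r = 0.92 or 0.93). Fmo2 correlated with Fmo1 at r = 0.86 over the same libraries. For Fmo4 the most similar were Sugt1, Gm43279, Eml3, Hdx and Ppil6 (r = 0.83 to 0.85), and for Fmo5 Pcsk2os1, Cep128, Iqcc, Tnfrsf13b and Serpina11 (r = 0.75 to 0.82).

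The genes beside the members were measured in the same fit. Of 20 neighbours past the filter (the nearest 5 on each side, members left out), 0 passed the 24-h test in edgeR. Of all genes tested, 0.0659% did. An unadjusted p under 0.05 was found for 2, Myoc and Vamp4, against 5.2% of all genes tested. DESeq2 called 1 of the 20, Myoc. Their amplitudes had a median of 0.08, and the highest was 1.20 for Mir7225, which averaged only 0.234 CPM. Myoc, which encodes the secreted protein myocilin and lies 180 kb from Fmo1, had an amplitude of 0.35 and a peak at 15.1 h (unadjusted p = 0.00299, adjusted p = 0.572 in edgeR). Fmo6, 17.8 kb from Fmo2, had 0.168 ± 0.0534 CPM at ZT2 and between 0.297 ± 0.0662 (ZT8) and 0.327 ± 0.109 (ZT14) at the later times, and did not pass (adjusted p = 0.989). Prrx1, a mesenchymal transcription factor gene on the other side of Fmo6, had an amplitude of 0.17 (adjusted p = 0.999). Prkab2, 2.91 kb from Fmo5, had an amplitude of 0.04.

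FMOs depend on a supply of FAD and NADPH. Among 12 genes listed for flavin and NADPH supply, carriers included, 0 passed the 24-h test in edgeR, against 0.0659% of all genes tested. For 0 of the 12 the unadjusted p was under 0.05, against 5.2% of all genes tested. DESeq2 called 0 of the 12. Their median log2 difference between ZT14 and ZT2 was 0.02, beside a median of about 0 for all genes. H6pd, which makes NADPH inside the endoplasmic reticulum, came nearest with 5.12 ± 0.493 CPM at ZT2 and 6.07 ± 0.346 at ZT14 (unadjusted p = 0.0524). Flad1, the FAD synthase gene, had an amplitude of 0.05, and Nnt, the mitochondrial transhydrogenase gene, 0.16 with a fitted peak at 7.53 h. Neither passed the 24-h test in edgeR (adjusted p = 0.986 and 0.989). Whether Nnt makes a working enzyme in these C57BL/6J mice cannot be read from RNA levels.

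Cytochromes P450 and their electron donors are the other oxygenase system of the same membrane. Of their 23 genes, 0 passed the 24-h test in edgeR, against 0.0659% of all genes tested. An unadjusted p under 0.05 was found for 5 of the 23, against 5.2% of all genes tested. DESeq2 called 1, Cyp2j9. Cyp2j9 was highest at ZT20, at 51.4 ± 1.74 CPM, and lowest at ZT8, at 45.0 ± 2.88 (edgeR adjusted p = 0.620). Por, the reductase that passes electrons to P450s, had 56.8 ± 2.72 CPM at ZT2 against 65.7 ± 3.64 at ZT14 (fitted peak 13.3 h, adjusted p = 0.844). Cyp39a1, an oxysterol hydroxylase, peaked at 1.53 h. The median log2 difference of the list between ZT14 and ZT2 was -0.02.

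The other drug-metabolizing lists also held no gene past the edgeR test. The shares over all genes tested were 0.0659% past the 24-h test and 5.2% at an unadjusted p under 0.05. Of 23 genes of oxidation, reduction and hydrolysis, 0 passed in edgeR, 2 had an unadjusted p under 0.05 and DESeq2 called 0. Those 2 were Aldh1a1, which makes retinoic acid (12.9 ± 0.586 CPM at ZT2, 16.1 ± 0.397 at ZT14), and Adh7. Of 21 conjugation enzymes, 0 passed, 1 had an unadjusted p under 0.05 and DESeq2 called 0; that gene was Mgst3, a microsomal glutathione transferase (133.9 ± 7.73 and 151.9 ± 4.80 CPM). Of 8 genes of taurine and sulfur amino acids, 0 passed, 1 had an unadjusted p under 0.05 and DESeq2 called 0. That gene was Slc6a6, the taurine transporter (9.03 ± 0.565 and 11.1 ± 1.43 CPM). Csad, which makes hypotaurine, the FMO1 substrate, had 19.4 ± 1.63 and 21.3 ± 0.302 CPM and did not pass.

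Of 12 regulators of such enzymes, 10 were past the filter, and Nr1i2 and Hnf4a, factors of liver and gut, were not. Of the 10, 0 passed in edgeR (0.0659% of all genes tested did), 0 had an unadjusted p under 0.05 (5.2% did) and DESeq2 called 0. Nr1i3, which encodes the receptor CAR, had 0.590 ± 0.189 CPM at ZT2 and 1.10 ± 0.346 at ZT14 (adjusted p = 0.982). Nr3c1, the glucocorticoid receptor gene, had an amplitude of 0.07.

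Glucocorticoids are adrenal hormones that peak in mice near lights off, and 13 genes known to respond to them were listed. Of these, 1 passed the 24-h test in edgeR (Fam107a), against 0.0659% of all genes tested. An unadjusted p under 0.05 was found for 9, against 5.2% of all genes tested. Of those 9, 8 were higher at ZT14 than at ZT2. DESeq2 called 2, Mt1 and Fam107a. Fam107a had 14.2 ± 1.81 CPM at ZT2 and 27.3 ± 2.88 at ZT14, an amplitude of 0.48 and a fitted peak at 13.5 h (adjusted p = 0.0414). Leaving out 1 library ended that call except without ZT20 replicate 1 (adjusted p up to 0.297). The metallothioneins Mt1 (137 ± 10.6 and 177 ± 15.6 CPM) and Mt2 (84.7 ± 17.2 and 145.8 ± 25.4 CPM) had peaks at 13.1 and 12.3 h and adjusted p = 0.584 and 0.620. The median log2 difference of the list between ZT14 and ZT2 was 0.26. The list was picked with earlier results of these data known, so it is no independent evidence of a direction.

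**Figure D5:**
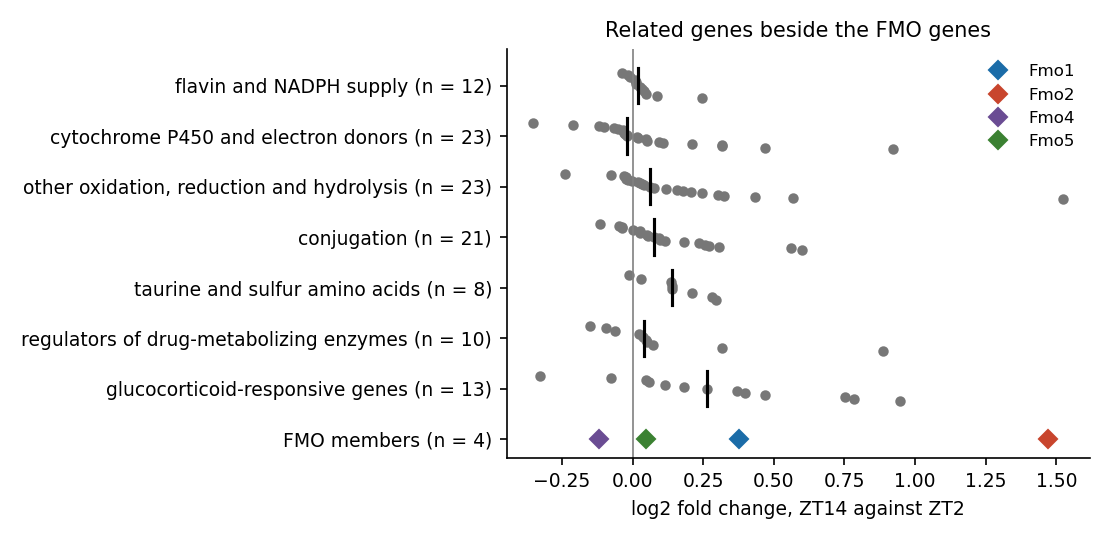
Log2 fold change of ZT14 against ZT2 (x axis) for each gene past the filter in 7 lists of related genes (grey dots, black line at the list's median) and for the FMO members (diamonds). Fmo2 (1.47), which was selected on its change, lies beyond every listed gene but Ces1d, a carboxylesterase gene at most at 0.759 CPM. The median of the glucocorticoid list is 0.26.

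The clock genes gave the phases against which Fmo2 can be read. Arntl, the activator BMAL1, peaked at 23.1 h with an amplitude of 0.86. Nr1d1, the repressor REV-ERB alpha, peaked at 7.96 h with an amplitude of 0.93, and Per2 at 12.0 h with 0.51 (adjusted p = 3.99e-04, 0.0128 and 0.0130 in edgeR). Leaving out any ZT20 replicate ended the Nr1d1 call (adjusted p = 0.0575 to 0.103), and leaving out ZT2 replicate 1 or 2, ZT14 replicate 2 or 3, or ZT20 replicate 3 ended that of Per2 (0.0638 to 0.0838). No single library ended the Arntl call, but without the 4 libraries of highest muscle score Arntl (adjusted p = 0.0752), Per2 (0.158) and Fam107a (0.244) did not pass. The fitted Fmo2 peak at 13.5 h came after that of Per2, with sampling every 6 h behind each estimate.

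Start-site sequences from RefSeq (GRCm38.p6) were searched for Fmo2, Fmo4 and Fmo5, which have 4 windows of 300 bases between them (250 before and 50 after the start), 2 of them for Fmo2. On both strands the search covered the E-box CACGTG, the D-box as TTATGTAA or TTACGTAA, the ROR element core as TAGGTCA or TGGGTCA, the full glucocorticoid receptor element and its looser core ACANNNTGT, which overlaps every full one. The dioxin response core GCGTG and the antioxidant core TGACNNNGC were searched likewise, and TATAAA on the gene's strand only. The member windows held 0 matches. In all 32851 windows the shares were 7.15% for the E-box, 1.06% for the D-box, 6.45% for the ROR core, 0.47% and 6.85% for the glucocorticoid forms, 32.4% for GCGTG, 12.4% for TGACNNNGC and 8.32% for TATAAA.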

How the data were processed

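Per the submitters' processing notes, the authors used HISAT2 2.2.1 and StringTie 2.1.5 with genome build GRCm38.p6; no source used here says how the gene table was made. Its deposited values are estimated counts, not whole numbers. The commonest value above 10 in a library (16.4 to 17.2) was shared by genes of very different length, so the values follow coverage, and library totals (89.8 to 125.01, in units of 1000000) are not reads. An approximation from transcript lengths gave 47.9 to 67.1 in that unit. Symbols came from GENCODE M21; 38462 of 38594 IDs matched without version, and 348 assembled loci (0.203% to 0.231% of a library) were left out.

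Values were rounded and tested with edgeR 4.0.16 in R 4.3.3 (filterByExpr, TMM, robust quasi-likelihood fit, 4 times, all 12 libraries, 25809 genes), with Benjamini-Hochberg adjustment and a threshold of 0.05. The 24-h component combines ZT14 against ZT2 with ZT20 against ZT8. DESeq2 1.42.0 and limma-trend (limma 3.58.1) were alternatives. CPM use TMM-scaled library sizes; likeness used log2 CPM with a prior count of 2. The marker score of a cell type is the mean log2 CPM of its markers. The fits were tested on simulated data.

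Named genes were the members, up to 3 genes of lowest unadjusted 24-h p per list, the 8 most like and 8 most opposite to Fmo2, the 5 most like each other member, and neighbours; Ces1d, Mir7225, Myoc, Vamp4, Prrx1 and Prkab2 were singled out after their values were seen. Some listed genes are not reported here. The members and lists were chosen with earlier results of these data known. The labels do not state that replicate numbers pair the libraries, and the reported fit did not pair them.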

Additional observations from a re-analysis of the deposited data

How the results depend on the processing

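Over 20 alternatives the 24-h amplitude of Fmo2 ran from 0.69 to 0.77 and that of Fmo1 from 0.18 to 0.21. Fmo4 ran from 0.13 to 0.25, and Fmo5, at 0.030 in the reported fit, from 0.018 without ZT14 replicate 2 to 0.065 without the 4 libraries of highest muscle-marker score. In the 24-h test, of the tested members only Fmo1 was called, by DESeq2 alone. The counts over all genes were less stable, and the cause was not tested. For any difference between the 4 times, the count of 13 became 21 with a mean CPM of at least 1, 292 with DESeq2 and 8 without those 4 libraries. For the 24-h component, 17 became 163 with DESeq2 and 4 without those 4 libraries. For ZT14 against ZT2, 12 became 106 with DESeq2, 19 with approximate reads, 6 with only the 6 libraries of the 2 times and 0 without those 4 libraries (edgeR, 1480 at an unadjusted p under 0.05). For ZT20 against ZT8, 6 became 68 with DESeq2 and 2 with only 6 libraries. With the replicate number as a block, the counts in that order were 7, 4, 5 and 2, and Nr1d1 (adjusted p = 0.0927), Per2 (0.0608) and Fam107a (0.153) did not pass the 24-h test; the numbers share no stated source, and same-numbered libraries correlated between -0.06 and 0.08 in their deviations. Leaving out 1 library at a time gave 4 to 22, 5 to 17, 3 to 13 and 0 to 10, the 0 without ZT20 replicate 3 (edgeR, 1348 at an unadjusted p under 0.05). Of the 4 members Fmo4 had the lowest levels, at 1.15 to 2.31 CPM; counting error and other spread between libraries were not separated.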
